A study of Mus musculus with 8 samples.

Results

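Dio1 and 4 further genes of thyroid hormone action, Thra, Thrb, Thrsp and Ttr, were followed in the liver of mice that lacked SHP, leptin or both. Per gene, the probe sets that the array annotation assigned to that symbol alone were found, and the probe set with the highest mean over the 8 arrays was used, so that the 5 genes were 5 of 12393 genes measured. The set was chosen by a measured value, the level of Dio1 in these arrays, which was already known to be lower in both genotypes without SHP. Its values in the SHP comparisons are therefore given as a description, with no test. Total RNA of liver had been labelled with biotin and hybridised to Affymetrix arrays, with 2 arrays for each of 4 genotypes on a C57BL background. The genotypes were wild-type, SHP-/- (SHP knockout), OB-/- (leptin knockout) and OB-/-/SHP-/- (both knockouts), and all mice had standard chow. Age and sex are not in the labels. Nor do they state that replicate arrays were made from different mice, so the spread that the p-values rest on may be technical.

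The thyroid gland secretes mainly thyroxine, a prohormone, and deiodinases in the tissues remove an iodine atom to make the active hormone triiodothyronine or its inactive relatives. Dio1 encodes type 1 deiodinase, a selenium-containing enzyme of liver and kidney that makes triiodothyronine and also clears spent hormone, and its gene is itself induced by triiodothyronine. Thra and Thrb encode the nuclear receptors of the hormone, of which the beta receptor predominates in liver. Thrsp, also called Spot 14, was found as a hepatic transcript that responds to thyroid hormone and carbohydrate, and its protein promotes fatty acid synthesis. Ttr encodes transthyretin, a plasma carrier of thyroxine and of the retinol-binding protein that the liver secretes. SHP, the product of Nr0b2, lacks a DNA-binding domain and acts as a repressor of fellow nuclear receptors, and leptin is the fat-derived hormone that restrains feeding.

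The promoters of Dio1 and Thrsp are shown because the levels of these 2 members moved most between genotypes. RefSeq's promoter table of the build GRCm38.p6 held 3 of the 5 members. Each sequence is the 250 bases before the annotated start, 5′ to 3′ on the gene's own strand, which is the minus strand for both genes, at chr4:107307169-107307418 for Dio1 and at chr7:97417551-97417800 for Thrsp. Capitals mark matches, on either strand, to CAAAG, a core of sites for the liver factor HNF4, and to CCAAT, the box bound by the factor NF-Y. A match is a description of letters and not a site.
Dio1: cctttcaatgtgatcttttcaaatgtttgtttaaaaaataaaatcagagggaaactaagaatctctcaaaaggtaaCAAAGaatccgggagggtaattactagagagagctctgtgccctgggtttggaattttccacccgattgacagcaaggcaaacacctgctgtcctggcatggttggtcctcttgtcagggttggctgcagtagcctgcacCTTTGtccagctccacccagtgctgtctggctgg
Thrsp: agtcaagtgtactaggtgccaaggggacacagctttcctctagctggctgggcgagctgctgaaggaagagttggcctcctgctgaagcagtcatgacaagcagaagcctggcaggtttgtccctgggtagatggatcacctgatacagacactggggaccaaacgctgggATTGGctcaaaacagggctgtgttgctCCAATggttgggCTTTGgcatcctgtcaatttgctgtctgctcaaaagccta

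In the window shown, Dio1 held 2 matches to CAAAG, at -174 to -170 on the plus strand of the sequence and at -34 to -30 on the other, and 0 matches to CCAAT. Thrsp held 1 match to CAAAG, at -40 to -36, and 2 matches to CCAAT, at -79 to -75 and -52 to -48. CAAAG was present in 48.6% of the 32851 promoters of this length in the table, and CCAAT in 33.8%. The letters AGGTCA, a single binding repeat of the thyroid hormone receptors, were in 4607 of the promoters and in neither window.

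Values are deposited log2 expression levels, so a difference of 1 is a doubling. Array medians were 5.45 to 5.56 and levels ran from 2.20 to 14.19. Nr0b2, the deleted gene, read 8.74 and 8.71 in wild-type and 7.78 and 8.31 in SHP-/- livers, against 8.01 and 8.01 in OB-/- livers and 7.11 and 6.66 in OB-/-/SHP-/- livers. It was lower in both knockouts of SHP than in their controls, passed the test in OB-/-/SHP-/- minus OB-/- (limma, adjusted p = 0.0108) and did not in SHP-/- minus wild-type (-0.68, adjusted p = 0.286). With SHP intact it fell by a like amount in OB-/- minus wild-type (-0.72, adjusted p = 0.0258). Whether its probes fall inside the deletion is not given in the sources used here. The liver markers Alb and the other hepatocyte genes (7 of 8 measured) were abundant on all arrays, with Alb between 13.87 and 14.07. Their median difference was 0.03 in SHP-/- minus wild-type and -0.34 in OB-/- minus wild-type, where Alb alone was higher. Tat fell there by 0.65 and Cps1 by 0.51 (9.36% of all genes fell). In OB-/-/SHP-/- minus OB-/- the median was 0.31, with 6 of 7 higher, and Tat rose by 0.68 (1.26% of all genes rose). These Tat and Cps1 calls were lost with some single arrays left out. Marker lists of other cell types and tissues were summed on the linear scale. The 8 macrophage markers summed to 1099 to 1131 in wild-type and 2016 to 2764 in SHP-/- livers, against 3097 to 3102 in OB-/- livers and 3504 to 4429 in OB-/-/SHP-/- livers, the pancreatic acinar markers (8 of 9 measured) to 428 to 682 in OB-/- and 118 to 184 elsewhere, and the thyroid tissue markers (4 of 6 measured) to 93.0 to 117 on all arrays, with Tg (4.05 to 4.70), Pax8 (3.24 to 3.62) and Tshr (3.74 to 4.47) at the dim end of the scale. The adipocyte markers (4 of 6 measured) summed to 6236 to 8055 on the leptin-null and 4223 to 5557 on the leptin-intact arrays. Car3, at 12.03 to 12.96, made up nearly all of that sum, while the defining markers Adipoq (2.79 to 3.07) and Lep (3.16 to 3.53) were at the dim end on every array. The 3′ minus 5′ difference of Gapdh control probe sets, a measure of RNA integrity, averaged 0.90 in wild-type and 0.27 in SHP-/- livers, against -0.04 in OB-/- livers and 0.07 in OB-/-/SHP-/- livers, and that of Actb averaged 1.88, 1.30, 0.83 and 0.86 in that order. The part of these markers and offsets in the results below was not tested. In bulk liver, fewer cells of a type and less RNA per cell cannot be told apart. The arrays of OB-/- replicate 1, where Xist read 7.41 against 4.31 to 4.70 elsewhere, and SHP-/- replicate 1, where the early response gene Fos read 11.95 against 5.17 to 6.98 elsewhere, stood apart. Of the Y-linked genes, Eif2s3y read 6.99 on OB-/- replicate 1 and 6.57 to 7.50 elsewhere, and Uty read 4.55 there and 4.89 to 5.14 elsewhere. Kdm5d, also Y-linked, fell by 1.12 in OB-/- minus wild-type and by 0.93 in OB-/-/SHP-/- minus SHP-/- (limma, adjusted p over probe sets 4.7e-04 and 0.00252). Its other probe sets gave -0.02 and 0.02 in the first comparison and -0.05 and -0.12 in the second. The acute-phase gene Saa2 read 12.23 in SHP-/- replicate 2 and 8.58 to 10.59 elsewhere. Replicates differed by more than 2 for 17 genes in SHP-/-, 4 in OB-/-/SHP-/-, 1 in OB-/- and 0 in wild-type mice.

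**Figure D1:**
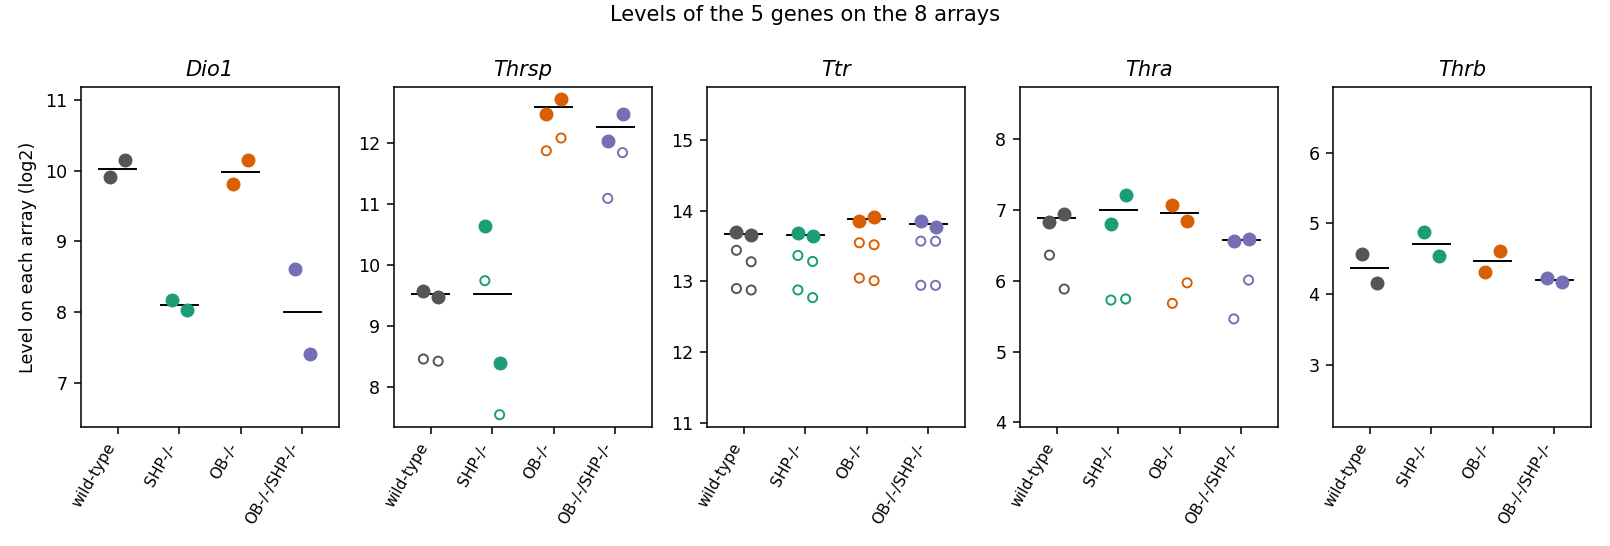
Level of each of the 5 genes on the 8 arrays (log2, one panel per gene), by genotype. Filled points are the probe set used, with the genotype mean as a black line, and open points are the other probe sets; Dio1 lies near 10 in wild-type and OB-/- and near 8 in both SHP-null genotypes, while Thrsp is above 12 in both leptin-null genotypes.

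Dio1 was about 4 times lower in the livers without SHP, whether or not leptin was present. Its single probe set read 9.90 and 10.14 in wild-type mice and 8.17 and 8.03 in SHP-/- mice. In OB-/- mice it read 9.81 and 10.14, and in OB-/-/SHP-/- mice 8.60 and 7.41. All 4 SHP-intact arrays lay above all 4 SHP-null arrays, which was so for 197 genes, or 1.59% of those measured, and this is the pattern for which Dio1 was chosen. The means were 10.02 ± 0.17 in wild-type and 8.10 ± 0.10 in SHP-/- livers, against 9.98 ± 0.23 in OB-/- livers and 8.01 ± 0.84 in OB-/-/SHP-/- livers (SD, n = 2 each). SHP-/- minus wild-type was -1.92 ± 0.30 (SE; 95% interval -2.57 to -1.27), a 3.80-fold lower level, and OB-/-/SHP-/- minus OB-/- was -1.97 ± 0.30 (-2.62 to -1.32), a 3.92-fold lower level. The difference between these 2 values was -0.04 ± 0.42, with an interval of -0.96 to 0.88, so the data do not bound it tightly.

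The OB-/-/SHP-/- replicates differed by 1.19 for Dio1, a wider gap than for 99.82% of genes in that genotype. Without replicate 1 of OB-/-/SHP-/- the difference from OB-/- was -2.57, and without replicate 2 it was -1.37, so its size depended on the array while it stayed below 0. Without OB-/- replicate 1 and SHP-/- replicate 1 together, the differences were -1.99 in SHP-/- minus wild-type and -2.14 in OB-/-/SHP-/- minus OB-/-. Among the macrophage markers, Mpeg1, a pore-forming protein of phagocytes, rose in the same 2 comparisons, by 1.74 and 1.70 (limma, adjusted p = 0.00173 and 3.5e-04; the first became 0.0668 without wild-type replicate 1). Over all 8 macrophage markers the median difference was 0.84 in SHP-/- minus wild-type and -0.09 in OB-/-/SHP-/- minus OB-/-, and the part of these cells in the Dio1 values was not tested.

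Leptin loss could be tested for Dio1, because the rule had not used it, although these comparisons share arrays with those that did. OB-/- minus wild-type was -0.05 ± 0.30 (95% interval -0.70 to 0.60; limma, adjusted p = 0.945) and OB-/-/SHP-/- minus SHP-/- was -0.09 ± 0.30 (-0.74 to 0.56; adjusted p = 0.883). Neither passed the threshold, and neither interval is narrow enough to show that Dio1 was the same. The second value rested on the discordant pair: it was -0.69 without OB-/-/SHP-/- replicate 1, which passed the test (adjusted p = 0.0487), and 0.51 without replicate 2 (adjusted p = 0.187). With both losses together, Dio1 was lower than in wild-type by 4.04-fold (-2.02 ± 0.30).

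Among the other enzymes that activate, inactivate or conjugate thyroid hormone, 1 was called in 1 comparison. Of 10 listed besides Dio1, 6 were measured. None passed the test in either SHP comparison, where the unadjusted p was below 0.05 for 0 and 1 of them. Of all genes measured, 0.323% were called in SHP-/- minus wild-type (0.226% rose and 0.0968% fell) and 2.14% in OB-/-/SHP-/- minus OB-/- (1.26% rose and 0.880% fell). With leptin loss, 16.9% were called in OB-/- minus wild-type (7.58% rose and 9.36% fell) and 10.6% in OB-/-/SHP-/- minus SHP-/- (4.95% rose and 5.62% fell). In the interaction, which is the difference between both SHP comparisons, 0.549% were called (0.355% above and 0.194% below 0), and in OB-/-/SHP-/- minus wild-type 15.9% (7.60% rose and 8.25% fell). The median differences of the 6 enzymes were -0.02 and -0.12 with SHP loss, beside -0.03 and 0.01 over all genes. Dio2, the deiodinase of brain and brown fat, stayed between 4.36 and 5.05, and its SHP differences were 0.01 and -0.16. Iyd, which recovers iodide from iodotyrosines, lay between 9.84 and 10.24. Sult1b1, a sulfotransferase that acts on thyroid hormones, was the one enzyme that rose, by 0.64 ± 0.18 in OB-/-/SHP-/- minus SHP-/- (limma, adjusted p = 0.0417). That call was lost, with adjusted p up to 0.244, when SHP-/- replicate 2, OB-/-/SHP-/- replicate 1 or any 1 of the wild-type or OB-/- arrays was left out. In OB-/- minus wild-type Sult1b1 differed by 0.55 (adjusted p = 0.0559).

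**Figure D2:**
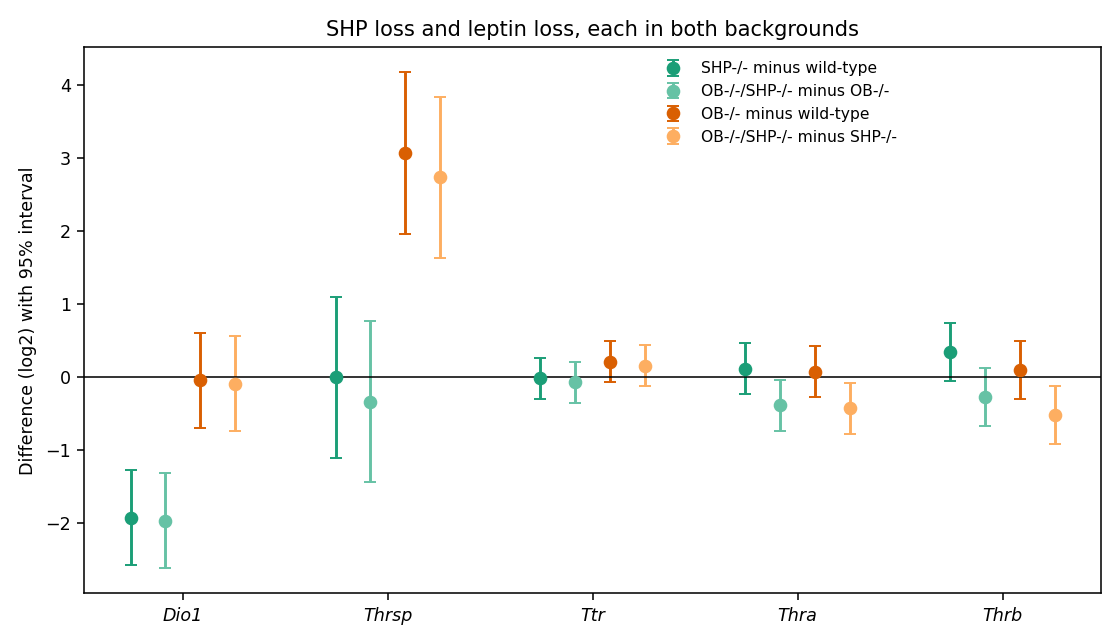
Difference in level (log2) with its 95% interval for each gene in 4 comparisons, SHP loss with and without leptin and leptin loss with and without SHP. Dio1 departs from 0 with SHP loss at -1.92 and -1.97, and Thrsp with leptin loss at 3.07 and 2.73; the Dio1 values with SHP loss are those it was chosen for.

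Thrsp was higher in both genotypes without leptin, and it was not called in either SHP comparison. It read 9.57 and 9.48 in wild-type mice and 12.48 and 12.71 in OB-/- mice. In SHP-/- mice it read 10.64 and 8.40, and in OB-/-/SHP-/- mice 12.03 and 12.48. All 4 leptin-null arrays lay above all 4 leptin-intact arrays on both of its probe sets. Counted on the probe set used for each gene, this pattern was seen in 1476 genes or 11.9% of those measured. Thrsp rose by 3.07 ± 0.50 in OB-/- minus wild-type, or 8.38-fold (limma, adjusted p = 0.00198), and by 2.73 ± 0.50 in OB-/-/SHP-/- minus SHP-/-, or 6.64-fold (adjusted p = 0.00642). It was the 1 of 5 members called in each of these comparisons, in which 7.58% and 4.95% of all genes rose, and the 1 of 4 tested in OB-/-/SHP-/- minus wild-type, where 7.60% of all genes rose and Thrsp rose 6.63-fold (2.73 ± 0.50, adjusted p = 0.00450). With robust eBayes, which lets a gene of wide spread keep that spread, the 3 adjusted p-values were 0.0598, 0.101 and 0.0810 and the calls were lost. The OB-/-/SHP-/- minus SHP-/- call was also lost without OB-/-/SHP-/- replicate 2 (adjusted p = 0.0510) and when only the arrays of that comparison were fitted (adjusted p = 0.0562). Without OB-/- replicate 1 and SHP-/- replicate 1 together, the 2 leptin differences were 3.18 and 3.85. The second probe set of Thrsp gave 3.53 and 2.82 (adjusted p over probe sets 0.00128 and 0.00857).

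With SHP loss, none of the 4 members tested passed in either comparison, nor in the interaction. The unadjusted p was below 0.05 for 0 of them in SHP-/- minus wild-type, 1 in OB-/-/SHP-/- minus OB-/- and 2 in the interaction. For Thrsp, SHP-/- minus wild-type was -0.00 ± 0.50 (95% interval -1.11 to 1.10; limma, adjusted p = 0.999), a mean that lies between 2 replicates 2.24 apart. That gap was wider than for 99.90% of genes in SHP-/- mice and was seen on both probe sets, the second of which read 9.74 and 7.55. Without SHP-/- replicate 2 the difference was 1.12 (adjusted p = 0.0325), and without replicate 1 it was -1.12 (adjusted p = 0.0375). With leptin absent, OB-/-/SHP-/- minus OB-/- was -0.34 ± 0.50 (adjusted p = 0.881), and the interaction was -0.34 ± 0.71 (-1.90 to 1.23; adjusted p = 0.955), or 0.79 (adjusted p = 0.405) and -1.46 (adjusted p = 0.0252) without SHP-/- replicate 1 and 2. Of the 11 other lipogenic genes measured, 7 were higher in SHP-/- replicate 1 than in replicate 2, with a median gap of 0.04, and of the 8 macrophage markers 7 were, with a median gap of 0.74.

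**Figure D3:**
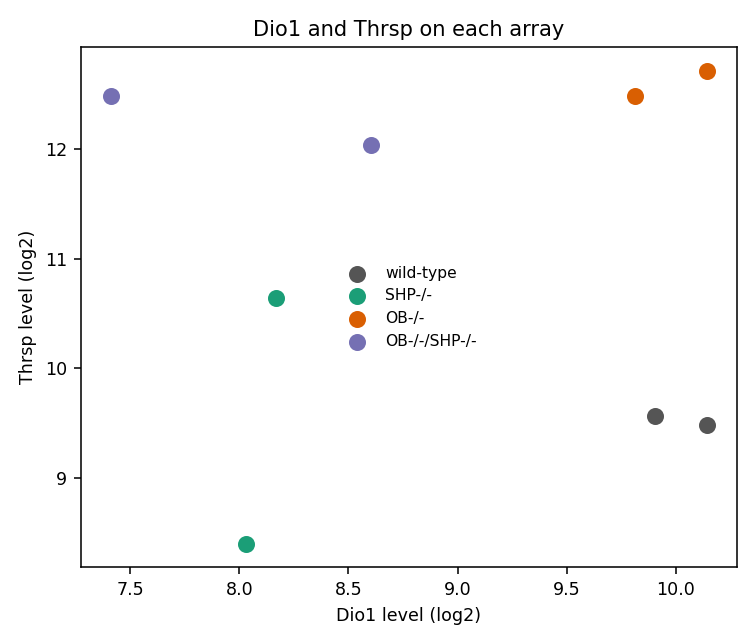
Dio1 level against Thrsp level (both log2), one point per array, coloured by genotype. The 4 genotypes take separate corners: Dio1 is 9.81 or more on the SHP-intact arrays and 8.60 or less on the SHP-null arrays, and Thrsp is 12.03 or more on the leptin-null arrays and 10.64 or less on the others.

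Dio1 and Thrsp, both known as thyroid hormone targets in liver, thus took different orders over the genotypes. Over the 8 arrays their Pearson r was 0.015, given as a description of arrays that share genotypes.

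On the probe sets used, no other gene known to be induced by thyroid hormone in liver was called with SHP loss. Of 17 listed besides the members, 16 were measured and 0 passed in SHP-/- minus wild-type or in OB-/-/SHP-/- minus OB-/- (limma), with 4 and 1 at an unadjusted p below 0.05. Their median differences were 0.05 and -0.02. With leptin loss, 4 rose and 3 fell in OB-/- minus wild-type (7.58% of all genes rose and 9.36% fell), with a median of 0.24 beside -0.01 over all genes. Me1, the malic enzyme that supplies reducing power for fat synthesis, read 9.64 and 9.57 in wild-type and 9.47 and 9.23 in SHP-/- livers, against 12.07 and 12.19 in OB-/- livers and 11.43 and 11.68 in OB-/-/SHP-/- livers. All 4 leptin-null arrays were higher than the others, as for 11.9% of all genes. Me1 rose by 2.52 ± 0.15 (5.75-fold, adjusted p = 1.1e-06) and, without SHP, by 2.21 ± 0.15 (adjusted p = 4.6e-06). Fasn, the fatty acid synthase, rose by 1.84 in OB-/- minus wild-type (adjusted p = 0.00112), while Bcl3, a partner of NF-kappaB, fell by 1.27 (adjusted p = 0.00279). The calls of Me1, Fasn and Bcl3 in OB-/- minus wild-type were kept with any array left out.

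Further members of that list changed with less certainty. Gpd2, the mitochondrial glycerol phosphate dehydrogenase, rose by 0.77 in OB-/- minus wild-type (limma, adjusted p = 0.0202) and by 1.15 in OB-/-/SHP-/- minus SHP-/- (adjusted p = 0.00409), and the first call was lost without any 1 of the 4 arrays compared (adjusted p up to 0.124). Klf9, a transcription factor, fell by 0.54 (adjusted p = 0.0250), a call lost without OB-/- replicate 2 or either wild-type array (up to 0.184); of its 6 other probe sets 2 had values above 0, at 0.28 and 0.15. The next 3 genes were named after their values were seen. Pdk4, a kinase that shuts off pyruvate dehydrogenase, rose by 1.50 in OB-/- minus wild-type (adjusted p = 0.0161; up to 0.157 without OB-/- replicate 1, replicate 2 or wild-type replicate 1). Mlxipl, the carbohydrate response factor ChREBP, fell by 0.89 (adjusted p = 0.00597; up to 0.0694 without OB-/- or wild-type replicate 1). Cyp7a1, which catalyses the first step from cholesterol to bile acids, fell by 1.07 in OB-/-/SHP-/- minus SHP-/- (limma, adjusted p = 0.0455). That call was lost without either OB-/- array, either SHP-/- array or OB-/-/SHP-/- replicate 2, with differences from -1.55 to -0.59 over the single arrays left out. The other probe set of Cyp7a1 gave -0.87 there (adjusted p over probe sets 0.166). In OB-/- minus wild-type that other probe set rose by 1.63 (0.0114), while the probe set used gave 0.28 (0.620). In OB-/-/SHP-/- minus SHP-/- Me1 and Gpd2 rose and Cyp7a1 fell among the 16 genes, on the probe sets used. The list's median there was 0.09 beside 0.03 over all genes.

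**Figure D4:**
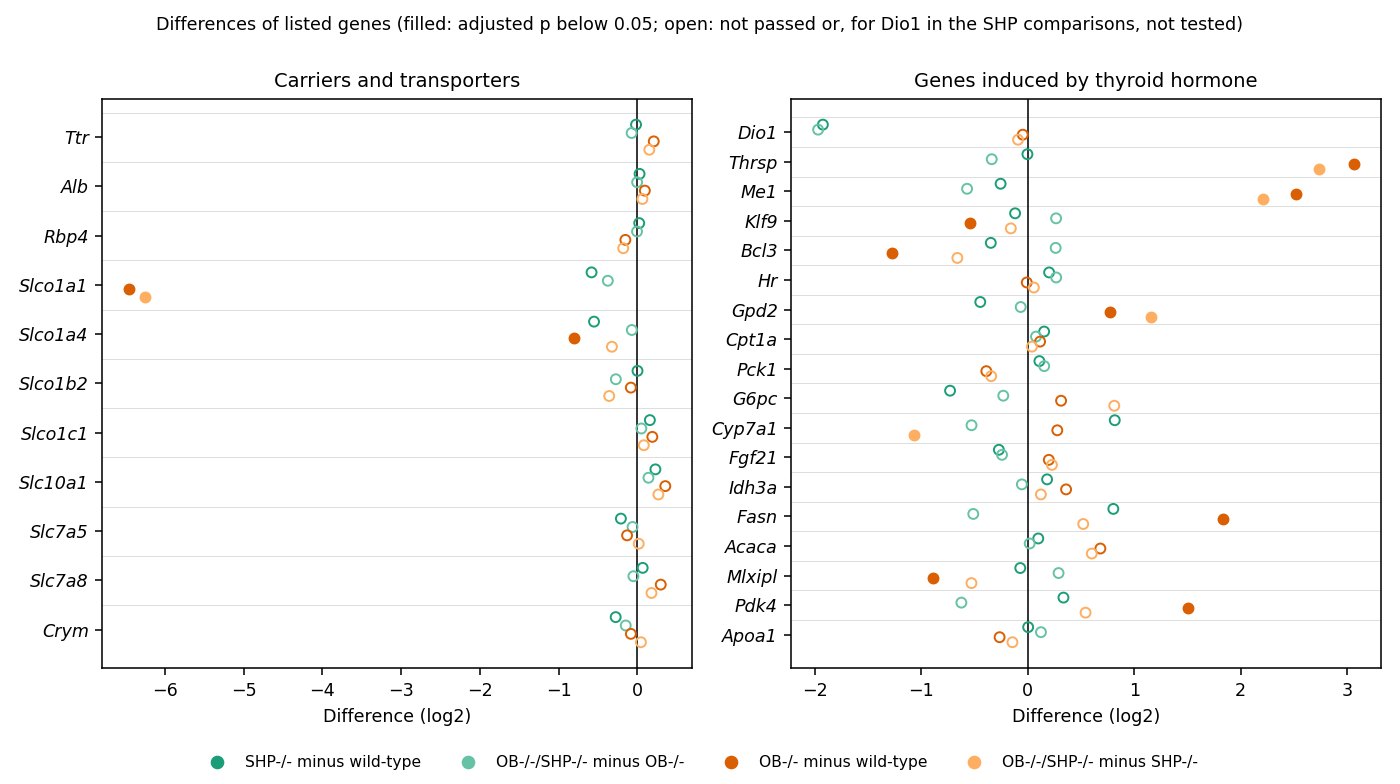
Differences (log2) of the thyroid hormone carriers and transporters (left) and of hepatic genes known to be induced by thyroid hormone (right) in 4 comparisons; filled points passed the test at an adjusted p below 0.05. Slco1a1 lies at -6.46 and -6.25 with leptin loss, and in the right panel Thrsp and Me1 lie above 2 with leptin loss while Dio1 alone lies below -1.5 with SHP loss.

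Lipogenic genes known to be controlled together with Thrsp were also higher in OB-/- livers. Of 11 of 12 listed genes that were measured besides Thrsp, 6 rose and 1, Mlxipl, fell in OB-/- minus wild-type, with a median of 0.73 (7.58% of all genes rose and 9.36% fell). Scd1, the desaturase that makes oleate, rose by 1.94 (limma, adjusted p = 6.1e-05) on a probe set that read 13.61 and 13.69 in OB-/- livers, near the top of the scale, and its other probe set gave 6.58 (adjusted p over probe sets 1.6e-05), so the size of its rise was not settled. Pklr, the liver pyruvate kinase, rose by 2.00 (adjusted p = 1.1e-04), and Elovl6, a fatty acid elongase, by 1.77 (adjusted p = 7.8e-04). These 3 calls were kept with any array left out, and Me1, Fasn and Acly, the enzyme that makes cytosolic acetyl-CoA, were the others that rose. Without SHP, 3 rose with leptin loss, Me1, Scd1 (0.81, adjusted p = 0.0199; 2.92 on its other probe set) and Pklr (1.03, adjusted p = 0.0100), with a list median of 0.36. The Scd1 call was lost without OB-/-/SHP-/- replicate 2 or SHP-/- replicate 2 (up to 0.123) and the Pklr call without OB-/-/SHP-/- replicate 2 (0.0752). Mid1ip1, a relative of Thrsp that binds acetyl-CoA carboxylase and was named after its values were seen, fell by 0.56 (adjusted p = 0.0453; up to 0.227, lost without any 1 of the OB-/-, SHP-/- or OB-/-/SHP-/- arrays).

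With SHP loss, 2 lipogenic genes fell when leptin was absent and 1 rose when it was present. In OB-/-/SHP-/- minus OB-/-, Acly, named after its values were seen, fell by 1.01 (limma, adjusted p = 0.00249), and Elovl6 fell by 1.14 (adjusted p = 0.0422). The Acly call was kept with any array left out, and its 4 other probe sets gave -0.83 (adjusted p over probe sets 0.0194), -0.47, -0.24 and 0.03. The Elovl6 call was lost without either OB-/- array, either wild-type array or OB-/-/SHP-/- replicate 1 (adjusted p up to 0.351). Its other probe set gave a difference of -0.41 (adjusted p over probe sets 0.772). The list's median there was -0.35, beside 0.01 over all genes. In SHP-/- minus wild-type the median was 0.00 and Scd1 alone rose, by 1.04 (adjusted p = 0.0499), a call that was lost without any array but SHP-/- replicate 2 (up to 0.5). Its other probe set gave 3.53 there (adjusted p over probe sets 0.0150). On the probe sets used, no lipogenic gene passed the interaction test (5 of 11 at an unadjusted p below 0.05). One of the other probe sets of Pklr did pass it, at -1.35 (adjusted p over probe sets 0.0296), and gave -0.93 in OB-/-/SHP-/- minus OB-/- (0.0178). The third probe set of Pklr gave -0.99 (0.119) and -0.62 (0.117) in the same order.

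The receptors themselves were not called in any comparison. Thra read 6.83 and 6.95 in wild-type and 6.80 and 7.21 in SHP-/- livers, against 7.08 and 6.85 in OB-/- livers and 6.56 and 6.59 in OB-/-/SHP-/- livers, so the OB-/-/SHP-/- arrays were the lowest. OB-/-/SHP-/- minus OB-/- was -0.39 ± 0.16 (limma, adjusted p = 0.359) and OB-/-/SHP-/- minus SHP-/- was -0.43 ± 0.16 (adjusted p = 0.118), and the interaction was -0.50 ± 0.23 (adjusted p = 0.598). The second probe set of Thra, which was dimmer with a mean of 5.85 against 6.86, did not repeat this order, and gave -0.09 and 0.00 in those 2 comparisons and 0.30 in the interaction. SHP-/- minus wild-type was 0.12 (adjusted p = 0.948), or -0.39 on the second probe set.

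Thrb, the main hepatic receptor, was dim on its 1 probe set, with a mean of 4.44, at the 33.19 percentile of all probe sets. It read 4.57 and 4.16 in wild-type and 4.89 and 4.54 in SHP-/- livers, against 4.31 and 4.62 in OB-/- livers and 4.22 and 4.17 in OB-/-/SHP-/- livers, and the wild-type arrays spanned most of the range of the leptin-null arrays. OB-/-/SHP-/- minus SHP-/- was -0.51 ± 0.18 (limma, adjusted p = 0.0995; unadjusted p = 0.0159), SHP-/- minus wild-type 0.34 ± 0.18 (adjusted p = 0.779) and OB-/- minus wild-type 0.10 (adjusted p = 0.785). Thrb lay below the level of 4.83 under which genes were left out as dim in one of the alternatives.

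Retinoid X receptors, which pair with the thyroid hormone receptors on DNA, changed with leptin loss. In OB-/- minus wild-type Rxra fell by 0.73 (limma, adjusted p = 0.00470), Rxrb fell by 0.55 (adjusted p = 0.0152) and Rxrg, a scarce form in liver, rose by 0.53 (adjusted p = 0.0480). Each of these calls depended on single arrays: Rxra lost its call without OB-/- replicate 2 or wild-type replicate 1 (up to 0.0517), and Rxrb and Rxrg without any 1 of the 4 arrays compared (up to 0.106 and 0.282). A second, dimmer probe set of Rxra passed the other way, at 0.54 (limma, adjusted p over probe sets 0.0277), so the direction of Rxra was not settled. It gave 0.76 in OB-/-/SHP-/- minus wild-type (0.00649). In OB-/-/SHP-/- minus SHP-/- only Rxra passed, at -0.51 (adjusted p = 0.0396), and that call was lost without any 1 of the OB-/-, SHP-/- or OB-/-/SHP-/- arrays (up to 0.169). None of the 3 passed in an SHP comparison.

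Coregulators that the receptors recruit were measured for 11 of 14 listed genes. None passed with SHP loss (2 and 1 at an unadjusted p below 0.05). With leptin loss 1 rose and 3 fell in OB-/- minus wild-type on the probe sets used, with a median of -0.23 (7.58% of all genes rose and 9.36% fell). Another probe set of the listed gene Tbl1x rose by 0.58 there (limma, adjusted p over probe sets 0.0278). Another of Tbl1xr1 rose by 0.67 in OB-/-/SHP-/- minus SHP-/- (0.0237) and by 0.82 in OB-/-/SHP-/- minus wild-type (0.00564). Ppargc1a, the coactivator PGC-1alpha of fasting metabolism, read 7.68 and 7.56 in wild-type and 7.36 and 6.98 in SHP-/- livers, against 6.40 and 6.35 in OB-/- livers and 6.98 and 6.88 in OB-/-/SHP-/- livers. It fell by 1.25 in OB-/- minus wild-type (limma, adjusted p = 3.3e-04), a call kept with any array left out, with -0.86, -0.64, -0.18 and -0.66 on its 4 other probe sets, and differed by -0.24 in OB-/-/SHP-/- minus SHP-/- (adjusted p = 0.363). Med1, a Mediator subunit that binds nuclear receptors, fell by 0.61 and 0.56 in these 2 comparisons (adjusted p = 0.0133 and 0.0303). The 5 other probe sets of Med1 disagreed in direction, with -0.44, -0.94, -0.02, -0.19 and 0.02 in the first comparison and -0.31, -0.47, -0.20, 0.54 (adjusted p over probe sets 0.0472) and 0.40 in the second. The acetyltransferase Crebbp fell by 0.67 and 0.63 (adjusted p = 0.0269 and 0.0481). Hdac3, the deacetylase of the corepressor complex, rose by 0.65 and 0.55 (adjusted p = 0.0137 and 0.0430). All 6 of these calls were lost without at least 1 array, with adjusted p up to 0.246, and for OB-/- minus wild-type the arrays were OB-/- or wild-type replicate 1 for Med1, OB-/- replicate 2 or wild-type replicate 1 for Crebbp, and either OB-/- array or wild-type replicate 2 for Hdac3. In OB-/-/SHP-/- minus SHP-/- they were OB-/-/SHP-/- replicate 2 or either SHP-/- array for Med1, any array but SHP-/- replicate 1 for Crebbp, and any OB-/-, SHP-/- or OB-/-/SHP-/- array for Hdac3.

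Ttr was among the most abundant RNAs on the arrays and varied little. It read 13.69 and 13.65 in wild-type and 13.68 and 13.63 in SHP-/- livers, against 13.85 and 13.91 in OB-/- livers and 13.85 and 13.77 in OB-/-/SHP-/- livers. All 4 leptin-null arrays were above all 4 leptin-intact arrays on each of its 3 probe sets, which read the same 8 samples. On the probe sets used, 11.9% of all genes showed this pattern. The differences were small and did not pass: OB-/- minus wild-type was 0.21 ± 0.13 (limma, adjusted p = 0.314) and OB-/-/SHP-/- minus SHP-/- was 0.15 ± 0.13 (adjusted p = 0.494). The SHP differences were -0.02 and -0.07 (adjusted p = 0.989 and 0.906). The highest value in the whole table was 14.19, so a gene this bright lies near the top of the scale, where differences may be compressed.

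Among the other carriers and transporters, measured for 10 of 13 listed genes, the import carrier Slco1a1 changed most. This organic anion transporter of hepatocytes takes up thyroid hormones, bile acids and steroids. It read 10.49 and 10.44 in wild-type and 10.11 and 9.67 in SHP-/- mice. In OB-/- mice it read 4.10 and 3.92 and in OB-/-/SHP-/- mice 3.85 and 3.42, near the dim end of the scale. OB-/- minus wild-type was -6.46 ± 0.18 (limma, adjusted p = 8.1e-09). When SHP was absent as well, leptin loss gave -6.25 ± 0.18 (adjusted p = 1.1e-08), and both calls were kept with any array left out. All 4 leptin-null levels lay below the dim level of 4.83, so these differences are not exact sizes of a fold. A second probe set gave -4.50 and -4.09.

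Slco1a4, a related transporter, fell by 0.80 in OB-/- minus wild-type (limma, adjusted p = 0.0138), a call lost without either OB-/- array or wild-type replicate 1 (up to 0.128). On the probe sets used, Slco1a1 and Slco1a4 were the 2 of 10 that fell with leptin loss when SHP was present (9.36% of all genes fell). When SHP was absent 1 of 10 fell, Slco1a1 (5.62% of all genes fell), and the medians were -0.08 and 0.03. Slc10a1, the bile acid importer NTCP, rose by 0.50 in OB-/-/SHP-/- minus wild-type (adjusted p = 0.0325; up to 0.177 without OB-/-/SHP-/- replicate 2 or either wild-type array), with 0.79 on its other probe set. Rbp4, the retinol carrier that travels bound to transthyretin, was 13.20 to 13.28 on the leptin-intact and 13.04 to 13.10 on the leptin-null arrays. This difference did not pass (limma, adjusted p = 0.490 and 0.421) and was noted after the values were seen. How many of all genes had every leptin-intact array above every leptin-null array was not counted. On other probe sets, Slco1b2 rose by 1.55 (limma, adjusted p over probe sets 4.9e-04) and Slc10a1 by 0.67 (0.0123) in OB-/- minus wild-type. In OB-/-/SHP-/- minus wild-type, Slco1b2 gave 1.20 (0.00263) on that probe set and -0.47 (0.0435) on another. With SHP loss none of the 10 passed on the probe sets used (2 and 0 at an unadjusted p below 0.05).

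On the probe sets used, transcription factors known to activate Dio1 did not pass with SHP loss. Of 5 listed besides Thrb, 4 were measured, and their median differences were 0.06 and 0.24, with 1 and 1 at an unadjusted p below 0.05. Hnf4a differed by -0.01 in SHP-/- minus wild-type on the probe set used, but by 1.44 (adjusted p over probe sets 0.0237), 0.49 and 0.52 on its 3 others. With leptin loss, all 4 passed in OB-/- minus wild-type on the probe sets used, 1 upward and 3 downward (7.58% of all genes rose and 9.36% fell). Foxa3, a forkhead factor of liver genes, read 9.37 and 9.13 in wild-type and 9.81 and 9.70 in SHP-/- livers, against 7.97 and 7.80 in OB-/- livers and 8.27 and 7.93 in OB-/-/SHP-/- livers. It fell by 1.37 ± 0.16 (limma, adjusted p = 2.2e-04) and, without SHP, fell by 1.66 ± 0.16 (adjusted p = 8.2e-05), calls kept with any array left out. Hnf4a, which binds the Dio1 promoter, fell by 0.76 on its brightest probe set (limma, adjusted p = 0.00338). Its 3 other probe sets gave -0.20, 0.28 and 1.24, the last of which passed upward (adjusted p over probe sets 0.00416), so its direction was not settled. Gata4 rose by 0.46 (adjusted p = 0.0465), a call lost without any array of the wild-type, OB-/- or SHP-/- mice (up to 0.233), with 0.34 on its other probe set.

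Dio1 needs selenium for its active site, and 14 of 15 genes of selenoprotein synthesis and other selenoproteins were measured. None passed in either SHP comparison (1 and 1 at an unadjusted p below 0.05), with medians of 0.00 and -0.05. Selenop, the plasma selenium carrier, lay between 13.06 and 13.25 on all arrays. Txnrd1, the cytosolic thioredoxin reductase, lay between 9.17 and 9.41 on the leptin-null and 9.56 and 9.87 on the leptin-intact arrays, and was not called. The share of all genes with the leptin-intact arrays so placed above the others was not counted. Another probe set of Txnrd1 went the other way, at 0.49 in OB-/- minus wild-type (limma, adjusted p over probe sets 0.0315). It gave 0.51 in OB-/-/SHP-/- minus wild-type (0.0302). In OB-/- minus wild-type Gpx4, the lipid peroxide-reducing enzyme, rose by 0.91 (limma, adjusted p = 8.1e-04), with 0.49 on its second probe set. Sephs2, which makes the selenium donor, fell by 0.72 (adjusted p = 0.00403) on the probe set used. Its 2 others gave -0.20 and 0.47, the latter passing upward (adjusted p over probe sets 0.0293). On the probe sets used, the calls of Gpx4 and Sephs2 were kept with any array left out. Eefsec, the selenocysteine elongation factor, fell by 0.46 in OB-/-/SHP-/- minus SHP-/- (adjusted p = 0.0473), a call lost without any array but OB-/-/SHP-/- replicate 1 (up to 0.238).

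Genes beside the members in the RefSeq order were measured for 8 of 9. None passed with SHP loss (1 and 3 at an unadjusted p below 0.05). Lrrc42, beside Dio1, lay between 7.25 and 7.78, with SHP differences of -0.09 and -0.24, and Ndufc2, beside Thrsp, had leptin differences of 0.23 and -0.03 on the probe set used. Another probe set of Ndufc2 gave 0.90 in OB-/- minus wild-type (limma, adjusted p over probe sets 0.00498). It gave 0.74 in OB-/-/SHP-/- minus wild-type (0.0151). Dsg2, also listed, was not called on the probe set used, but others gave 1.65 (0.00378) and 1.00 (0.0204) in OB-/- minus wild-type. These gave 1.63 (0.00462) and 1.25 (0.00767) in OB-/-/SHP-/- minus wild-type, while a further probe set of Dsg2 gave -0.68 in OB-/-/SHP-/- minus SHP-/- (0.0480). Nr1d1, the clock repressor REV-ERBalpha whose gene overlaps Thra on the opposite strand, fell by 1.11 in OB-/- minus wild-type (limma, adjusted p = 0.0350), a call lost without any 1 of the 4 arrays compared (up to 0.212). Hspb11, near Dio1, fell by 0.54 in OB-/-/SHP-/- minus wild-type (adjusted p = 0.0437), a call lost without either wild-type array, either OB-/- array or OB-/-/SHP-/- replicate 2 (up to 0.239), and its other probe set gave -0.03.

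**Figure D5:**
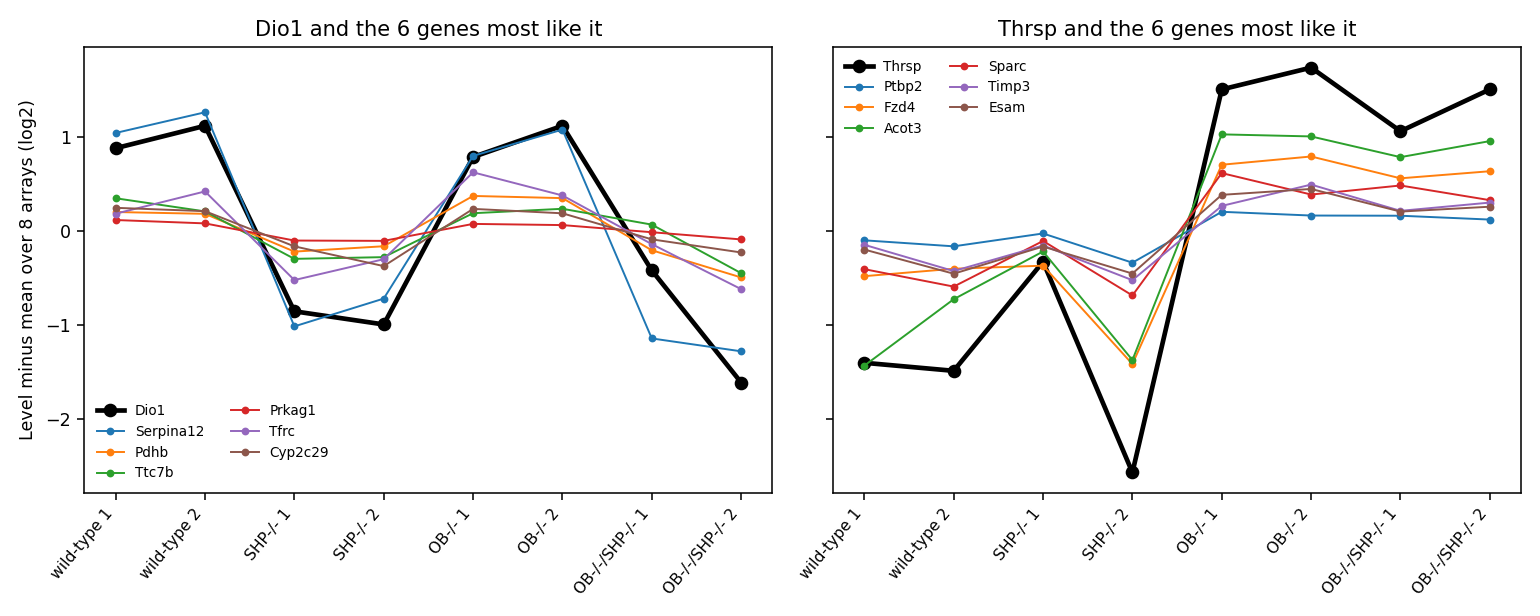
Level minus the gene's mean over the 8 arrays (log2) for Dio1 (left, black) and Thrsp (right, black) and the 6 genes with the highest Pearson r with each; arrays are ordered by genotype and the lines join arrays only to guide the eye. Serpina12 spans nearly the range of Dio1, and the other genes on the left span less.

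The genes whose levels over the 8 arrays were most like Dio1 were found among 6893 genes at or above the median level, by Pearson r, as a description of arrays that share genotypes. Serpina12, the adipokine vaspin, had r = 0.955. It read 7.27 and 7.49 in wild-type and 5.22 and 5.51 in SHP-/- livers, against 7.03 and 7.31 in OB-/- livers and 5.09 and 4.95 in OB-/-/SHP-/- livers, with SHP differences of -2.02 and -2.15 that are close in size to those of Dio1. Pdhb, a subunit of pyruvate dehydrogenase (r = 0.951), Ttc7b (0.949), Prkag1, a subunit of the AMP-activated kinase (0.942), Tfrc, the transferrin receptor (0.941), and Cyp2c29, a cytochrome P450 (0.938), followed. Their SHP differences were smaller, from -0.20 for Prkag1 to -0.71 for Tfrc in SHP-/- minus wild-type, and from -0.12 to -0.88 for the same genes in OB-/-/SHP-/- minus OB-/-.

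Most like Thrsp were Ptbp2, a splicing regulator (r = 0.977), Fzd4, a Wnt receptor (0.975), Acot3, a peroxisomal acyl-CoA thioesterase (0.973), Sparc, a matrix protein (0.968), Timp3, an inhibitor of metalloproteinases (0.967), and Esam, an adhesion molecule of endothelium (0.967). Fzd4 read 6.20 and 6.28 in wild-type and 6.31 and 5.26 in SHP-/- livers, against 7.39 and 7.47 in OB-/- livers and 7.24 and 7.32 in OB-/-/SHP-/- livers, with leptin differences of 1.19 and 1.49.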

How the data were processed

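The authors' deposited values are log2 expression levels, 1 per probe set and array, for which the submitters' processing notes name R 2.15.0. Log base 2 was inferred from the range of values; base, summarisation method and genome build stay not given in the sources used here. Of 22690 probe sets, 64 controls were left out and 20380 of the rest named 1 gene; 20351 of their gene IDs matched RefSeq (GRCm38.p6). All 12393 genes were fitted on the 8 arrays with limma 3.58.1 in R 4.3.3 (data.table, version 1.17.8), each genotype having its own mean, with 4 residual and 7.16 prior degrees of freedom. Two-sided p-values were Benjamini-Hochberg adjusted over the whole table per comparison, and genes were called, written as rose or fell, at an adjusted p below 0.05. The fit was tested on simulated data. The 5 members and the 15 lists (137 genes, 115 measured) were chosen with earlier results of these data known. List counts and medians leave out the members. Chosen for naming were all members, up to 4 called genes per list by smallest adjusted p, and the 6 genes most like Dio1 and Thrsp. Not every called gene so chosen is named in the text. Other names are marked, serve to check the arrays, or are listed genes not called on the probe set used, such as Dio2, Iyd and Selenop. Alternatives were normalisation, centring, a dim filter at the 40th percentile (4.83), eBayes with trend or robust, probe set rules, the arrays compared alone, the replicate number as a block, both doubted arrays left out, and each array left out in turn, where the lone array is assumed to vary like the others. Arrays give no counts, and it is their number that limits precision. Replicate numbers are shared by the genotypes, but deviations of same-numbered arrays correlated at -0.11 to 0.20 over 6 pairs and exceeded 0.1 in 3, so they were not taken as pairs. No arrays held identical values.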

Additional observations from a re-analysis of the deposited data

Results flagged for a closer look

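Several genes beside the members moved in opposite directions with SHP loss in the 2 leptin backgrounds, every array of one background moving one way and every array of the other the opposite way. How many of all genes showed this pattern was not counted, so it is only a description of these genes. The differences between both SHP comparisons (log2, limma interaction) did not pass the test: Ppargc1a 1.01 (adjusted p = 0.0864), Pklr -0.97 (0.291), Sephs2 0.46 (0.542) and Cyp7a1 -1.35 (0.320). On other probe sets the values were -1.35 (adjusted p over probe sets 0.0296, which passed) and -0.99 (0.119) for Pklr, -0.01 and -0.37 for Sephs2 and -2.50 (0.0706) for Cyp7a1. Cyp7a1 was low with SHP loss in leptin-null livers and high with it in the others, at -0.53 and 0.82. Among markers of cell types the same held for Cps1 of hepatocytes at 0.39 (0.656), Ctrb1 of the pancreas at -0.69 (0.397), and Vsig4 and Csf1r of macrophages at -1.25 (0.124) and -1.03 (0.219), with -1.09 and -0.17 on other probe sets of Csf1r.

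The pancreatic genes Clps and Prss2 passed the interaction test, at -3.13 (limma, adjusted p = 4.7e-04) and -2.90 (adjusted p = 0.00115), on the probe set used for each. The other probe set of Clps gave -0.24 (adjusted p over probe sets 0.881), and those of Prss2 gave -1.28 (0.0298), -0.56 (0.493) and -0.10 (0.951), all smaller than on the probe sets used. Clps read 7.95 and 7.15 in OB-/- mice, 4.28 and 4.20 in OB-/-/SHP-/- mice and 2.83 to 3.23 on the others. The part of pancreatic RNA in the members' values was not tested.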

How the results depend on the processing

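Over 144 results and all alternatives, 2597 values were computed, of which 2196 stayed the same. For a tested gene, that is the same direction and side of the threshold. For a count of calls, it is a count within a fixed ratio of the main one. Where Dio1 was not tested, it is a shift smaller than the spread between replicates. The Dio1 difference in SHP-/- minus wild-type stayed below 0 under every alternative run; its OB-/-/SHP-/- minus OB-/- value ranged from -2.57 to -1.37 with single arrays left out. With robust eBayes, 0 members were called in both leptin comparisons and in OB-/-/SHP-/- minus wild-type, Thrsp reaching adjusted p = 0.0598 (3.07), 0.101 (2.73) and 0.0810 in the order OB-/-, OB-/-/SHP-/- over SHP-/- and over wild-type; with the arrays of the comparison alone, 0 were called in OB-/-/SHP-/- minus SHP-/- (Thrsp 2.73, 0.0562). With single arrays left out, members called ranged from 0 to 1 in SHP-/- minus wild-type and the interaction and from 0 to 2 in OB-/-/SHP-/- minus SHP-/-, where Thrsp ranged from 1.61 to 3.85. Of 102 calls of genes outside the members that were chosen for naming, 46 were kept with any array left out. Same-numbered arrays were not taken as pairs: with the replicate block the Thrsp calls stayed, at adjusted p = 0.00180, 0.00576 and 0.00403, and the block changed no member's call.

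Signs of small differences turned as follows. With the mean of probe sets, Thra gave -0.14 in SHP-/- minus wild-type and -0.11 in OB-/- minus wild-type, Thrsp 0.10 in SHP-/- minus wild-type, Hnf4a 0.14 in OB-/- and 0.41 in OB-/-/SHP-/- minus wild-type, and Rxra 0.092 in the latter. With the next brightest probe set, Thra gave -0.39 and -0.30 in the same order, 0.0004 in OB-/-/SHP-/- minus SHP-/- and 0.30 in the interaction, Thrsp 0.20 in SHP-/- minus wild-type, and Ttr 0.037 in OB-/-/SHP-/- minus OB-/- and 0.071 in the interaction. Without x_at and s_at probe sets, Hnf4a gave 0.28 and 0.56 in OB-/- and OB-/-/SHP-/- minus wild-type. Without both doubted arrays, OB-/- minus wild-type was 0.12 for Dio1 and -0.039 for Thra, and the Thrsp interaction was 0.67. With single arrays left out, SHP-/- minus wild-type ranged from -0.088 to 0.32 for Thra, -1.12 to 1.12 for Thrsp and -0.039 to 0.0086 for Ttr; OB-/- minus wild-type from -0.21 to 0.12 for Dio1, -0.039 to 0.19 for Thra and -0.11 to 0.30 for Thrb; OB-/-/SHP-/- minus SHP-/- from -0.69 to 0.51 for Dio1; the interaction from -1.46 to 0.79 for Thrsp; and OB-/-/SHP-/- minus wild-type from -0.37 to 0.035 for Thrb. The cause was not tested. Over all alternatives, genes called ranged from 5 to 95 in SHP-/- minus wild-type (main value 40), 80 to 316 in OB-/-/SHP-/- minus OB-/- (265), 956 to 3342 in OB-/- minus wild-type (2100), 600 to 1744 in OB-/-/SHP-/- minus SHP-/- (1311), 32 to 113 in the interaction (68) and 820 to 3078 in OB-/-/SHP-/- minus wild-type (1965).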
